A study of Mus musculus with 14 samples.

Results

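The genes described here encode the subunits of the 5 complexes of oxidative phosphorylation in mouse liver. Members were all protein-coding genes whose symbols begin with Ndufa, Ndufb, Ndufc, Ndufs or Ndufv (complex I), are Sdha to Sdhd (complex II), begin with Uqcr (complex III), Cox4 to Cox8 (complex IV) or Atp5 (complex V), or name a mitochondrially encoded subunit of any complex. The rule found 106 of the 51912 genes counted, 93 of them nuclear and 13 mitochondrial. The nuclear genes comprise 46 named Nduf, 4 of complex II, 8 of complex III, 18 of complex IV and 17 of complex V. The 46 include 8 assembly factors of complex I named Ndufaf, and Ndufa4 with its paralog Ndufa4l2. A further 12 symbols that match were annotated as pseudogenes or as a non-coding RNA and were left out. Of the members, 88 nuclear and all 13 mitochondrial genes passed the filter on low counts and were tested, and Cox4i2, Cox6a2, Cox7b2, Cox8b and Cox8c did not pass.

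Total RNA from the left lobe of untreated livers was sequenced in 14 mice aged 20 weeks, 1 library per animal. All mice carried floxed alleles of Tet2 (Tet2fl/fl). There were 5 livers with spontaneous autoimmune hepatitis (AIH; Tet2fl/fl vav cre+), 5 from symptom-free mice of the same genotype (asymptomatic) and 4 from healthy cre- littermates (control). Vav-cre is active in blood cells, so the alleles of hepatocytes are not its target, and asymptomatic and AIH mice differ in phenotype and not in the genotype given. The comparisons ask how the respiratory chain genes differ with disease (AIH against control) and with the deletion in symptom-free mice (asymptomatic against control). They also ask how these genes differ between both outcomes of the same genotype (AIH against asymptomatic).

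Oxidative phosphorylation couples the oxidation of NADH and succinate to ATP synthesis at the inner mitochondrial membrane. Complexes I and II pass electrons to coenzyme Q, complex III passes them to cytochrome c and complex IV passes them to oxygen, while complexes I, III and IV pump protons that drive the ATP synthase, complex V. Complex II is encoded in the nucleus alone, and the other complexes join nuclear subunits with subunits made inside the mitochondrion from its own circular genome. Hepatocytes are rich in mitochondria, and their respiratory chain pays for gluconeogenesis and urea synthesis.

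Libraries held 15968380 to 18915729 counts on genes. Levels are given as CPM (counts per 1000000 counts on genes), scaled by the trimmed mean of M values (TMM), and fold changes and adjusted p-values come from edgeR's quasi-likelihood test with Benjamini-Hochberg adjustment over 14638 genes, called at 0.05. Counts of Xist and of Y-linked genes marked 4 of 5 AIH livers, 0 of 5 asymptomatic livers and 2 of 4 control livers as female, so sex and outcome are nearly confounded in AIH against asymptomatic. Reads not aligned made up 3.23% to 6.54% of a library in AIH, 4.93% to 9.27% in asymptomatic and 4.17% to 4.89% in control livers. Tet2 itself, counted over the whole gene, had 10.5 ± 3.98 CPM in AIH livers (SD, n = 5), 6.82 ± 1.83 CPM in asymptomatic livers (SD, n = 5) and 10.7 ± 1.54 CPM in control livers (SD, n = 4), and no comparison called it. A count over the whole gene and the whole liver does not check a deletion in blood cells. The titles number the AIH libraries 11 to 15 and the others 1 to 10, so any order of handling cannot be told apart from AIH. All 10 hepatocyte markers passed the count filter, with a summed level of 89446 to 164771 CPM in AIH livers, 123580.0 to 148436 CPM in asymptomatic livers and 116831 to 157610.0 CPM in control livers, and 1 of them fell in AIH against control and 3 in AIH against asymptomatic. All 5 pan-leukocyte markers (Ptprc, Coro1a, Laptm5, Cd53 and Lcp1) rose in AIH against control and against asymptomatic, with a summed level of 631 to 1011 CPM in AIH livers, 166 to 202 CPM in asymptomatic livers and 164 to 231 CPM in control livers. In whole liver, fewer cells of a type and less RNA per cell cannot be told apart, and the part of these shifts in the results on the respiratory chain was not tested.

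Per kilobase of the principal transcript, and averaged over the 14 libraries, the nuclear genes ranged from 0 to 637 CPM per kb. Atp5b, the catalytic beta subunit of complex V, was the highest with 637 CPM per kb, followed by Atp5g3 (521 CPM per kb), 1 of the genes for the proton-carrying ring subunit c. Cox4i1, the ubiquitous form of subunit 4, led complex IV with 429 CPM per kb. Ndufa4, a subunit first placed in complex I and now assigned to complex IV in human and mouse cells, had 366 CPM per kb. Uqcrh, the hinge protein, led complex III with 244 CPM per kb, and the membrane anchor Sdhd (189 CPM per kb) and the flavoprotein Sdha (187 CPM per kb) stood side by side in complex II. Among the core subunits of complex I, Ndufs3 was the lowest with 42.4 CPM per kb, and Ndufs1 had 54.8 and Ndufv1 96.4 CPM per kb. Its 8 assembly factors, which build the complex and do not stay in it, ranged from 3.67 to 19.7 CPM per kb, below every core subunit. The 7 isoforms of complex IV that serve muscle, lung or testis reached at most 2.56 CPM per kb, and Cox7b2 had 0 counts in all 14 libraries.

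Scaled by TMM, the nuclear genes as a set stood lowest in AIH livers. Their summed level was 9064, 10317, 8993, 9935 and 8182 CPM in AIH livers, against 11266, 10733, 13882, 10932 and 11223 CPM in asymptomatic livers and 12085, 10098, 11008 and 9982 CPM in control livers. On this scale no AIH liver reached the lowest asymptomatic liver, whereas AIH and control livers overlapped. As a share of the library's gene counts, without TMM, the nuclear sum was 1.05%, 1.19%, 0.850%, 1.02% and 0.925% in AIH livers, against 1.06%, 1.01%, 1.31%, 1.02% and 1.06% in asymptomatic livers and 1.15%, 0.944%, 1.105% and 1.01% in control livers. There 3 of 5 AIH livers were above the lowest asymptomatic liver, and the groups overlapped. The summed mitochondrial genes had 31288, 22578, 30451, 40536 and 30419.5 CPM in AIH livers, against 37769, 44642, 35123, 37609 and 37657 CPM in asymptomatic livers and 46829, 40461, 33009.7 and 45937 CPM in control livers. Here all 3 groups overlapped, with AIH liver 2 lowest and AIH liver 4, the male of the group, inside the range of the controls. The ratio of mitochondrial to nuclear sums averaged 3.36 ± 0.712 in AIH (SD, n = 5), 3.37 ± 0.577 in asymptomatic (SD, n = 5) and 3.87 ± 0.662 in control livers (SD, n = 4), differences within these spreads.

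**Figure D1:**
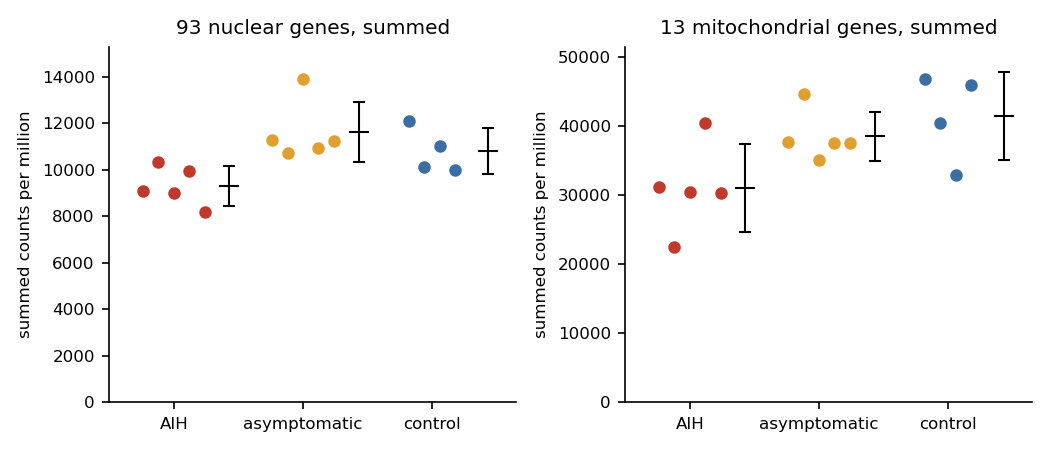
Summed TMM-scaled CPM of the 93 nuclear (left) and 13 mitochondrial (right) genes, 1 point per liver, with mean and SD beside each group. All 5 AIH livers lie below all 5 asymptomatic livers in the nuclear sum on this scale, whereas 3 of 5 AIH livers exceed the lowest asymptomatic liver as a share of library counts, and the groups overlap in the mitochondrial sum.

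In AIH against control, 7 of 88 nuclear genes fell (7.95%) and 1 rose, where 6.08% of all genes tested fell and 15.6% rose. In this fit the share that fell is near that of all genes, and the share that rose is far below it. DESeq2 called 18 nuclear genes lower there (20.5%, where 8.99% of all genes were). limma-voom called 14 lower (15.9%, where 8.35% of all genes were), so both shares were above those of all genes. With edgeR 19 nuclear genes had an unadjusted p under 0.05, and 34% of all genes did. The nuclear genes' median log2 fold change was -0.09, against -0.01 for all genes. Single libraries moved it: it was -0.02 without AIH liver 5, -0.05 without control liver 1 or control liver 3, -0.14 without control liver 4, -0.15 without control liver 2 and -0.18 without AIH liver 2. In AIH against asymptomatic, 18 of 88 fell (20.5%) and 1 rose, where 10.7% of all genes fell and 19.1% rose (29.8% called in either direction). At an unadjusted p under 0.05 there were 26, and 41.4% of all genes. The median was -0.26, against -0.03 for all genes, and 83 of 88 estimates were below 0. Without asymptomatic liver 3 the median was -0.15, against -0.01 for all genes, and 69 of 88 estimates were below 0. In asymptomatic against control none of the 88 was called, as none of all 14638 genes was (0%), with 5 nuclear members at an unadjusted p under 0.05 and 10.5% of all genes. DESeq2 called 0 nuclear members there and 0.806% of all genes, and limma-voom called 2 (2.27%) and 8.87% of all genes. The 3 comparisons share libraries and are not independent of each other. Of the mitochondrial genes, 1 of 13 fell in AIH against control and none was called in the other comparisons. The groups did not overlap, with AIH lower, for 13 of 88 nuclear genes in AIH against control (14.8%, against 6.61% of all genes) and for 12 in AIH against asymptomatic (13.6%, against 4.65%). In asymptomatic against control they did not overlap for 1 nuclear gene with asymptomatic higher (1.27% of all genes) and for none with asymptomatic lower (1.15%).

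Scaling moved the calls. Scaled by library totals alone, all genes had a median log2 fold change of 0.14 in AIH against control and 0.17 in AIH against asymptomatic, and 89.8% and 88.9% of their calls were higher, against 72.0% and 64.2% with TMM. The nuclear medians became 0.07 and -0.05, so the sign against control turned, while their distance from the median of all genes was -0.07 and -0.23, against -0.08 and -0.23 with TMM. By library totals 1 nuclear gene rose and 1 fell against control (1.14% lower, where 2.08% of all genes were lower), and 1 rose and 2 fell against asymptomatic (2.27% lower, where 3.02% of all genes were). The share that fell was thus below that of all genes in both comparisons, and the higher share of falls among the nuclear genes against asymptomatic was seen with TMM and not here. The call that rose was Ndufa4l2 in both comparisons, and the calls that fell were Ndufs1 in both and Ndufaf4 against asymptomatic. Fewer genes separated the groups. By library totals AIH livers lay below all controls for 1 nuclear gene, Ndufs1 (2.49% of all genes), and below all asymptomatic livers for 2, Ndufs1 and Uqcrc1 (1% of all genes). The separations of single genes given below are those of TMM-scaled levels.

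The count in AIH against asymptomatic also depended on sex and on the share of reads not aligned. With sex as a term 1 nuclear gene was called, Ndufaf1 (1.14% lower, where 1.02% of all genes were), and with the share not aligned as a term none was, where 0.123% of all genes were lower. Calls over all genes were lost in these fits as well, while the median log2 fold change was -0.24 and -0.19 in these fits. Within males, where AIH liver 4 stands alone against 5 asymptomatic livers and is assumed to vary as the others do, none was called (0.184% of all genes lower) and the median was -0.25. In AIH against control, where both sexes occur in both groups, sex as a term left 1 gene higher and 4 lower (4.55%, where 4.1% of all genes were lower). Within females (4 against 2) 1 fell (2.51% of all genes did) and the median was -0.03, and within males (1 against 2) none was called (0.0342% of all genes lower) and the median was -0.14. Of the 19 calls in AIH against asymptomatic, 10 held without any 1 library: Ndufaf4, Ndufs1, Ndufa10, Ndufaf1, Uqcrc1, Uqcrfs1, Ndufs3, Ndufab1, Uqcrc2 and Ndufv1. Of the 9 in AIH against control, mitochondrial included, those of Ndufs1 and Ndufab1 did.

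**Figure D2:**
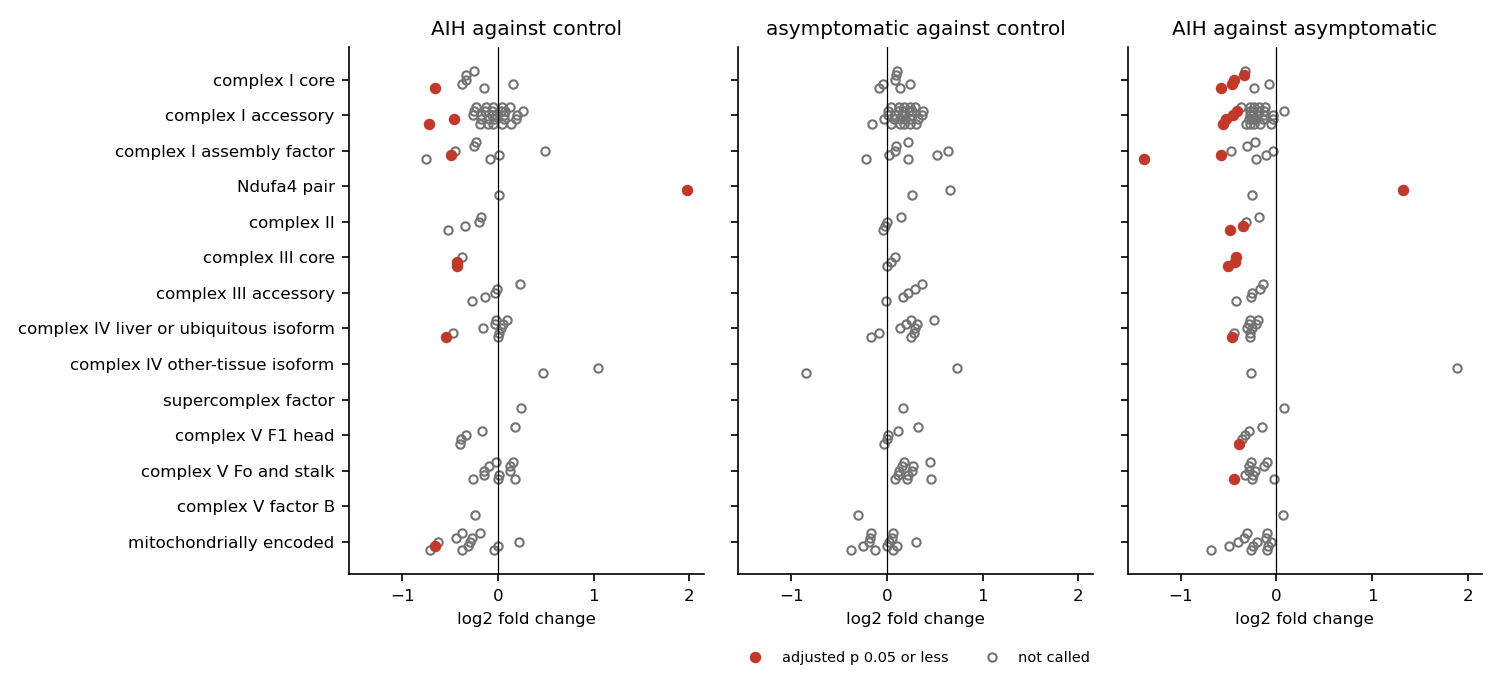
Log2 fold changes of the 101 tested genes by role in each comparison, filled where the adjusted p was 0.05 or less. In AIH against asymptomatic nearly all nuclear genes lie left of 0, and 18 of 88 fell (20.5%, against 10.7% of all genes). The called ones include 4 of 7 core subunits of complex I and 3 of 3 of complex III. By library totals alone 2 nuclear genes fell, and with sex as a term 1 did.

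Complex I takes electrons from NADH through a flavin and a chain of iron-sulfur clusters held by its core subunits. Of the 7 nuclear core subunits, 1 fell in AIH against control (14.3%) and 4 fell in AIH against asymptomatic (57.1%). The shares of all genes that fell were 6.08% and 10.7%. Ndufs1 (ENSMUSG00000025968, chromosome 1, 63143596 to 63176833, minus strand), the largest core subunit and a carrier of iron-sulfur clusters, had 106, 87.9, 103, 126 and 120.3 CPM in AIH livers, against 158, 162, 155, 168 and 167 CPM in asymptomatic livers and 185, 173, 173 and 156 CPM in control livers. Every AIH liver was below every other liver. The log2 fold change was -0.66 ± 0.13 (SE) against control (adjusted p = 0.00225) and -0.57 ± 0.12 (SE) against asymptomatic (adjusted p = 0.00298). Of 22 alternative fits per comparison, 21 called Ndufs1 lower against control and 19 against asymptomatic, where sex as a term, males alone and the share not aligned as a term ended the call.

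Ndufv1, which holds the flavin that accepts electrons from NADH, had 131, 134, 127, 158 and 116 CPM in AIH livers, against 188, 173, 214, 163 and 167 CPM in asymptomatic livers and 186, 163, 174 and 149 CPM in control livers. It fell by 0.44 on the log2 scale against asymptomatic (adjusted p = 0.0200), where the groups did not overlap, and its log2 fold change of -0.33 against control was not called (adjusted p = 0.0996). Ndufs3, a core subunit of the matrix arm, also fell against asymptomatic, with a log2 fold change of -0.46 ± 0.13 (SE) (adjusted p = 0.0169). Ndufs3 shares 39.7% of its 50-base words with other annotated transcripts, mainly a processed pseudogene, so its count is less certain. Ndufs8 and Ndufv2, which carry iron-sulfur clusters, were not called, with log2 fold changes of -0.08 and -0.24 against asymptomatic.

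The accessory subunits form the shell around this core. Of 29, 2 fell in AIH against control (6.90%) and 4 fell in AIH against asymptomatic (13.8%), with medians of -0.05 and -0.23. Both shares were near those of all genes, 6.08% and 10.7%. Ndufa10 (ENSMUSG00000026260, chromosome 1, 92439010 to 92473860, minus strand), a matrix-side subunit, had 91.1, 95.0, 88.1, 108 and 90.8 CPM in AIH livers, against 129, 115, 158, 136 and 145 CPM in asymptomatic livers and 148, 118, 129 and 127 CPM in control livers. Its AIH livers lay below all others, with log2 fold changes of -0.46 ± 0.13 (SE) against control and -0.53 ± 0.12 (SE) against asymptomatic (adjusted p = 0.0205 and 0.00531). The call against control was lost without control liver 1 (adjusted p = 0.0606). Ndufab1 (ENSMUSG00000030869, chromosome 7, 122085403 to 122101886, minus strand) is the mitochondrial acyl carrier protein, which also serves fatty acid and lipoic acid synthesis. It had 21.5, 26.4, 14.8, 19.6 and 17.2 CPM in AIH livers, against 27.9, 25.5, 30.5, 28.2 and 34.5 CPM in asymptomatic livers and 29.5, 38.4, 27.7 and 35.6 CPM in control livers. AIH livers did not overlap controls and overlapped asymptomatic livers through AIH liver 2, and the log2 fold changes were -0.72 ± 0.17 (SE) and -0.56 ± 0.16 (SE) (adjusted p = 0.00717 and 0.0173). It shares 12.3% of its words with other transcripts. Ndufb9 and Ndufb10, of the membrane arm, fell against asymptomatic by 0.45 and 0.41 on the log2 scale (adjusted p = 0.0488 and 0.0462). Ndufb9 shares 23.4% of its words with other transcripts. Its call was lost without any 1 of AIH livers 1, 3, 4 and 5 and asymptomatic livers 1, 3, 4 and 5 (adjusted p between 0.0579 and 0.116), and that of Ndufb10 without any 1 of AIH livers 1, 3, 4 and 5 and asymptomatic livers 1, 3, 4 and 5 (adjusted p between 0.0676 and 0.104). The other accessory subunits ranged from -0.37 to 0.08 in AIH against asymptomatic.

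Among the 8 assembly factors, Ndufaf1 and Ndufaf4 fell in AIH against asymptomatic (25%, where 10.7% of all genes fell). Ndufaf1 also fell in AIH against control (12.5%, where 6.08% of all genes fell). Ndufaf4 (ENSMUSG00000028261, chromosome 4, 24898083 to 24905001, plus strand), which acts in an early step of complex I assembly, had 32.0, 22.8, 20.6, 18.2 and 14.8 CPM in AIH livers, against 66.3, 30.4, 49.8, 61.8 and 75.1 CPM in asymptomatic livers and 48.4, 33.4, 26.9 and 37.1 CPM in control livers. AIH livers were low, asymptomatic livers high with the exception of asymptomatic liver 2, and controls in between, and AIH and asymptomatic livers overlapped through AIH liver 1 and asymptomatic liver 2. Its log2 fold change of -1.39 ± 0.25 (SE) against asymptomatic was the largest fall of any member (adjusted p = 0.00107). It was -0.75 ± 0.26 (SE) against control (adjusted p = 0.0563) and 0.64 ± 0.27 (SE) in asymptomatic against control (adjusted p = 0.441), neither called. Ndufaf1 (ENSMUSG00000027305, chromosome 2, 119655446 to 119662827, minus strand), part of the complex that assembles the membrane arm, had 24.4, 23.9, 18.0, 20.8 and 23.2 CPM in AIH livers, against 33.5, 25.7, 39.8, 35.2 and 31.0 CPM in asymptomatic livers and 28.0, 30.9, 37.4 and 27.8 CPM in control livers. Its log2 fold changes were -0.49 ± 0.15 (SE) against control and -0.58 ± 0.14 (SE) against asymptomatic (adjusted p = 0.0302 and 0.00711), with no overlap in either comparison. The call against control was lost without any 1 of AIH livers 3 and 4 and control livers 2 and 3 (adjusted p between 0.0547 and 0.0950). The other 6 were not called, and Ndufaf5 had the highest estimate, 0.50 against control (adjusted p = 0.283).

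Ndufa4l2, a paralog of Ndufa4 that is induced by hypoxia in many cell types, was the only member called higher. It had 2.21, 2.53, 7.40, 1.29 and 1.36 CPM in AIH livers, against 1.43, 0.941, 1.57, 0.711 and 1.20 CPM in asymptomatic livers and 0.468, 0.678, 1.25 and 0.559 CPM in control livers. The raw counts were 46, 52, 127, 23 and 27 in AIH, 22, 16, 25, 11 and 18 in asymptomatic and 8, 12, 23 and 10 in control libraries, so the gene is rare in all of them and AIH liver 3 stands far above the rest. Its log2 fold change was 1.98 ± 0.53 (SE) against control (adjusted p = 0.0148) and 1.33 ± 0.47 (SE) against asymptomatic (adjusted p = 0.0463). AIH livers lay above all controls and overlapped asymptomatic livers. Without AIH liver 3 the rise against control was still called and that against asymptomatic was not, with log2 fold changes of 1.30 and 0.65 (adjusted p = 0.0298 and 0.187). The call against control was lost without any 1 of control livers 1 and 4 (adjusted p between 0.0506 and 0.0513), and that against asymptomatic without any 1 of AIH livers 1, 2 and 3 and asymptomatic livers 1, 2, 4 and 5 (adjusted p between 0.0513 and 0.187). That second call was also lost with limma-voom, no count filter, the 2 groups alone, sex or the share not aligned as a term and within males, and the log2 fold change was 0.34 with sex as a term and 0.14 within males, where the 1.29 CPM of AIH liver 4 lie inside the range of asymptomatic livers. Of 22 alternative fits, 9 called it. Within females and within males the rise against control was not called. Ndufa4, its abundant counterpart, had log2 fold changes of 0.01 and -0.26, not called.

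Cox4i2, the form of cytochrome c oxidase subunit 4 known from lung and from oxygen-dependent regulation, did not pass the count filter. Its raw counts were 11, 6, 12, 2 and 4 in AIH libraries, 1, 2, 1, 1 and 0 in asymptomatic libraries and 0, 1, 1 and 0 in control libraries. Every AIH library had more counts than any control library. With no count filter its log2 fold change was 3.37 ± 0.88 (SE) in AIH against control and 2.36 ± 0.74 (SE) in AIH against asymptomatic (adjusted p = 0.0162 and 0.0343). The 35 counts over all AIH libraries against 2 over all control libraries are a ratio of 14.3 (95% exact interval 3.69 to 123, counting error only). Cox4i1, the form that dominates in liver, had 309 ± 56.7 CPM in AIH livers (SD, n = 5), 359 ± 67.6 CPM in asymptomatic livers (SD, n = 5) and 313 ± 12.4 CPM in control livers (SD, n = 4), and no comparison called it. Markers of stellate cells and pericytes moved beside both genes. Of 6, 3 rose in AIH against control and 5 in AIH against asymptomatic, where 15.6% and 19.1% of all genes rose. This list summed to 591 to 1229.7 CPM in AIH, 224 to 439 CPM in asymptomatic and 277 to 408 CPM in control livers. Rgs5, the pericyte marker of that list, had 147, 195, 137, 52.4 and 171 CPM in AIH livers, against 38.4, 71.6, 55.8, 44.4 and 42.7 CPM in asymptomatic livers and 39.2, 65.8, 48.9 and 62.0 CPM in control livers. AIH liver 2 was highest in Rgs5 and AIH liver 3 in Ndufa4l2, and AIH liver 4 was lowest of the AIH livers in both Rgs5 and Ndufa4l2. Markers of other cells rose too: all 6 of T cells, all 6 of monocytes and macrophages and all 5 of Kupffer cells in both comparisons. AIH liver 3 also had 902 CPM of summed cholangiocyte markers, against 78.6 to 118 CPM in the other AIH livers. The part of any of these cells in the values of Ndufa4l2 and Cox4i2 was not tested.

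Complex II oxidizes succinate as part of both the citric acid cycle and the respiratory chain. None of its 4 genes was called in AIH against control, where 6.08% of all genes fell. In AIH against asymptomatic 2 fell (50%, where 10.7% of all genes did). Sdha (ENSMUSG00000021577, chromosome 13, 74322254 to 74350280, minus strand), the flavoprotein that holds the succinate site, had 384, 336, 368, 593 and 451 CPM in AIH livers, against 623, 580.3, 579, 609 and 592 CPM in asymptomatic livers and 755, 543, 662 and 498 CPM in control livers. AIH liver 4 stood at the level of the other groups while the remaining AIH livers were lower. The log2 fold change was -0.48 ± 0.17 (SE) against asymptomatic (adjusted p = 0.0465) and -0.53 ± 0.18 (SE) against control (adjusted p = 0.0507). Sdhd, a membrane anchor, fell to 197 ± 13.5 CPM in AIH livers (SD, n = 5), against 252 ± 36.5 CPM in asymptomatic livers (SD, n = 5), with an adjusted p of 0.04996, just inside the threshold. The call of Sdha was lost without any 1 of AIH livers 1, 2, 3 and 5 and asymptomatic livers 1, 2, 3, 4 and 5 (adjusted p between 0.0589 and 0.106), and that of Sdhd without any 1 of AIH livers 1, 3, 4 and 5 and asymptomatic livers 1, 2, 3 and 4 (adjusted p between 0.0560 and 0.109). Sdhb, the iron-sulfur subunit, and Sdhc, the other anchor, had log2 fold changes of -0.32 and -0.18, not called.

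In complex III the 3 nuclear core genes fell in AIH against asymptomatic (100%) and 2 of them in AIH against control (66.7%). The shares of all genes were 10.7% and 6.08%. None of the 5 small accessory subunits was called. Uqcrc1 and Uqcrc2 encode the core proteins of the matrix side, and Uqcrfs1 encodes the Rieske iron-sulfur protein that passes electrons toward cytochrome c. Uqcrc1 (ENSMUSG00000025651, chromosome 9, 108936633 to 108949623, plus strand) had 172, 179, 159, 199.9 and 166 CPM in AIH livers, against 252, 230.4, 282, 236 and 242 CPM in asymptomatic livers and 265, 209, 258 and 208 CPM in control livers. Uqcrfs1 (ENSMUSG00000038462, chromosome 13, 30540308 to 30545362, minus strand) had 158, 170.1, 171, 157 and 138 CPM in AIH livers, against 205, 214, 241, 203 and 209 CPM in asymptomatic livers and 214, 215, 187 and 241 CPM in control livers. Uqcrc2 (ENSMUSG00000030884, chromosome 7, 120635176 to 120659524, plus strand) had 226, 187, 211, 244 and 210.4 CPM in AIH livers, against 275, 277, 328, 292 and 271 CPM in asymptomatic livers and 298, 282, 291 and 248 CPM in control livers. For all 3 genes every AIH liver was below every asymptomatic and every control liver. The log2 fold changes against asymptomatic were -0.50 ± 0.13 (SE) for Uqcrc1, -0.43 ± 0.12 (SE) for Uqcrfs1 and -0.42 ± 0.12 (SE) for Uqcrc2 (adjusted p = 0.00902, 0.0151 and 0.0188). Against control they were -0.42, -0.43 and -0.38, called for Uqcrc1 and Uqcrfs1 (adjusted p = 0.0369 and 0.0255) and not for Uqcrc2 (adjusted p = 0.0509). The call of Uqcrc1 against control was lost without any 1 of AIH livers 1, 2, 3 and 5 and control livers 1 and 3 (adjusted p between 0.0560 and 0.0910), and that of Uqcrfs1 without any 1 of AIH livers 1 and 5 and control liver 4 (adjusted p between 0.0517 and 0.0664). Both calls against control were also lost with library totals alone, no count filter, the 2 groups alone, sex as a term and within either sex, and that of Uqcrc1 with the share not aligned as a term. Of 22 alternative fits, 9 called Uqcrc1 and 13 called Uqcrfs1 against control, and 18 called each against asymptomatic. Uqcrc2 shares 24.8% of its words with other transcripts. The accessory genes Uqcrb, Uqcrh, Uqcrq, Uqcr10 and Uqcr11 had estimates from -0.42 to -0.14 against asymptomatic.

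**Figure D3:**
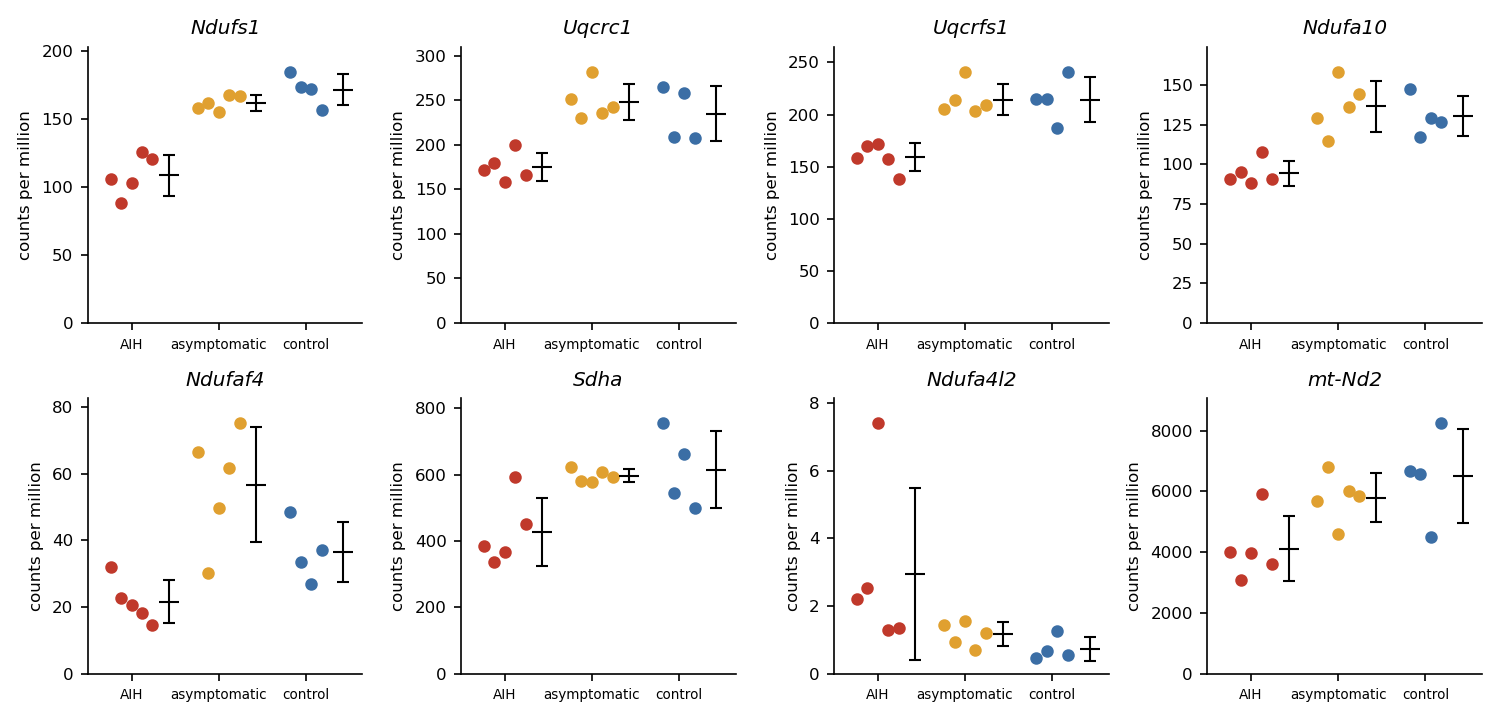
TMM-scaled CPM of 8 genes, 1 point per liver, with mean and SD beside each group. On this scale Ndufs1, Uqcrc1, Uqcrfs1 and Ndufa10 separate AIH livers from all others (by library totals alone, Ndufs1 does). Ndufaf4 is highest in asymptomatic livers with the exception of asymptomatic liver 2, and Ndufa4l2 is set apart by AIH liver 3.

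In complex IV, 1 of the 10 nuclear subunits of the liver or ubiquitous type fell in both comparisons with AIH (10%). Against control 6.08% of all genes fell, and against asymptomatic 10.7% did. Cox5b (ENSMUSG00000061518, chromosome 1, 36691449 to 36693681, plus strand), a zinc-binding subunit on the matrix side, had 37.4, 33.2, 30.4, 31.6 and 28.2 CPM in AIH livers, against 42.98, 35.5, 45.1, 43.3 and 55.0 CPM in asymptomatic livers and 59.0, 40.8, 40.0 and 47.7 CPM in control livers. Its log2 fold change was -0.54 ± 0.15 (SE) against control and -0.46 ± 0.15 (SE) against asymptomatic (adjusted p = 0.0205 and 0.0267), with overlap between AIH liver 1 and asymptomatic liver 2. The calls were lost without control liver 1 (adjusted p = 0.0738) in the first and without any 1 of AIH livers 3 and 5 and asymptomatic liver 5 (adjusted p between 0.05003 and 0.0755) in the second comparison, and 25.9% of its words are shared with another transcript. The other 9 had log2 fold changes from -0.47 to 0.10 against control and from -0.44 to -0.19 against asymptomatic. Of the isoform pairs, Cox6a1 had 271 CPM per kb and the muscle form Cox6a2 0.106, Cox7a2 had 185 and the muscle form Cox7a1 2.56, and Cox8a had 161 and the muscle form Cox8b 0.0431. The muscle forms were thus low, and 7 markers of skeletal and heart muscle together had 44 counts over all libraries. Cox7a1 passed the filter and was not called, and Cox6b2, known from testis, ranged from 0.280 to 3.499 CPM in AIH livers with AIH liver 2 highest, from 0.133 to 0.765 CPM in asymptomatic and from 0.0585 to 1.07 CPM in control livers, and was not called. Cox7a2l, which joins complexes III and IV into supercomplexes, had log2 fold changes of 0.24 and 0.08, not called.

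Complex V had no gene called in AIH against control, where 6.08% of all genes fell. In AIH against asymptomatic 2 of 17 were lower (11.8%), near the share of all genes (10.7%). Atp5b (ENSMUSG00000025393, chromosome 10, 128083273 to 128090391, plus strand) had 1012, 890.2, 957, 1217 and 1009.9 CPM in AIH livers, against 1309.6, 1330.4, 1399, 1308 and 1341 CPM in asymptomatic livers and 1490.2, 1287, 1352 and 1192 CPM in control livers. Its AIH livers lay below all asymptomatic livers and overlapped the controls through AIH liver 4, with log2 fold changes of -0.39 ± 0.14 (SE) and -0.40 ± 0.13 (SE) (adjusted p = 0.0566 and 0.0328). The call was lost without any 1 of AIH livers 1, 2, 3 and 5 and asymptomatic livers 1, 3, 4 and 5 (adjusted p between 0.0537 and 0.0725). Atp5g3 had 310.2, 345, 325, 349.6 and 261 CPM in AIH livers, against 394, 412, 498, 403 and 449.8 CPM in asymptomatic livers and 447, 355, 353 and 374 CPM in control livers. It fell by 0.44 on the log2 scale against asymptomatic (adjusted p = 0.0250), whereas Atp5g1 and Atp5g2, which encode the same mature subunit c, had -0.25 and -0.03, not called, a difference between the 3 genes that was not tested. The call of Atp5g3 was lost without any 1 of AIH livers 1 and 5 and asymptomatic livers 3 and 5 (adjusted p between 0.0523 and 0.0590). Atp5g2 shares 87.4% of its words with another transcript, and its count is uncertain. Atp5a1, the alpha subunit of the head, had 859 ± 116 CPM in AIH livers (SD, n = 5), 1079 ± 46.7 CPM in asymptomatic livers (SD, n = 5) and 1081 ± 124 CPM in control livers (SD, n = 4), with an adjusted p of 0.0813 against asymptomatic, not called. The remaining genes of complex V ranged in log2 fold change from -0.36 to 0.07 against asymptomatic. The 0.07 was that of Atp5s, factor B, and the estimates of all 5 head genes and all 11 stalk and membrane genes were below 0.

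Grouped across complexes, the catalytic and core genes of complexes I, II, III and the head of V numbered 19. Of these, 3 fell in AIH against control (15.8%) and 10 in AIH against asymptomatic (52.6%), with medians of -0.33 and -0.35. Of the other 69 nuclear genes tested, 4 fell in AIH against control (5.80%) and 8 in AIH against asymptomatic (11.6%), with medians of -0.03 and -0.25. Of all genes 6.08% and 10.7% fell, so the other nuclear genes were near the share of all genes. This grouping was made with the values known and carries no test. In AIH against asymptomatic, the estimates of all 19 core genes and of 64 of the other 69 were below 0. The core genes also have longer transcripts, with a median of 1623 bases against 738 bases for the others. Level differed with calling as well. Core or not, nuclear genes called in AIH against asymptomatic had a median level of 156 CPM, against 65.1 CPM for those not called. In AIH against control these medians were 80.3 and 72.3 CPM.

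Fold changes of the nuclear genes ran with transcript length in every comparison. Spearman's rho between log2 fold change and length of the principal transcript was -0.54 in AIH against control, -0.42 in asymptomatic against control and -0.34 in AIH against asymptomatic over the 88 genes, which are not independent replicates and share the same libraries. Over all 12913 protein-coding genes tested, rho was -0.16, -0.21 and -0.05. In AIH against control the 31 nuclear genes of 700 bases or under had a median of 0.01, the 14 genes over 1500 and up to 2500 bases had -0.26 and the 7 genes over 2500 bases -0.53. All protein-coding genes had 0.21, 0.05 and -0.07 in these length classes. In asymptomatic against control both sets ran side by side, with medians of 0.24 and 0.21 among transcripts of 700 bases or under. In AIH against asymptomatic the nuclear genes were at -0.21 in the shortest class, against 0.01 for all protein-coding genes, and at -0.48 in the longest, against -0.03. The 19 genes called in AIH against asymptomatic had a median length of 1623 bases, against 765 bases for the 69 not called. The part of transcript length or of level in these differences was not tested.

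**Figure D4:**
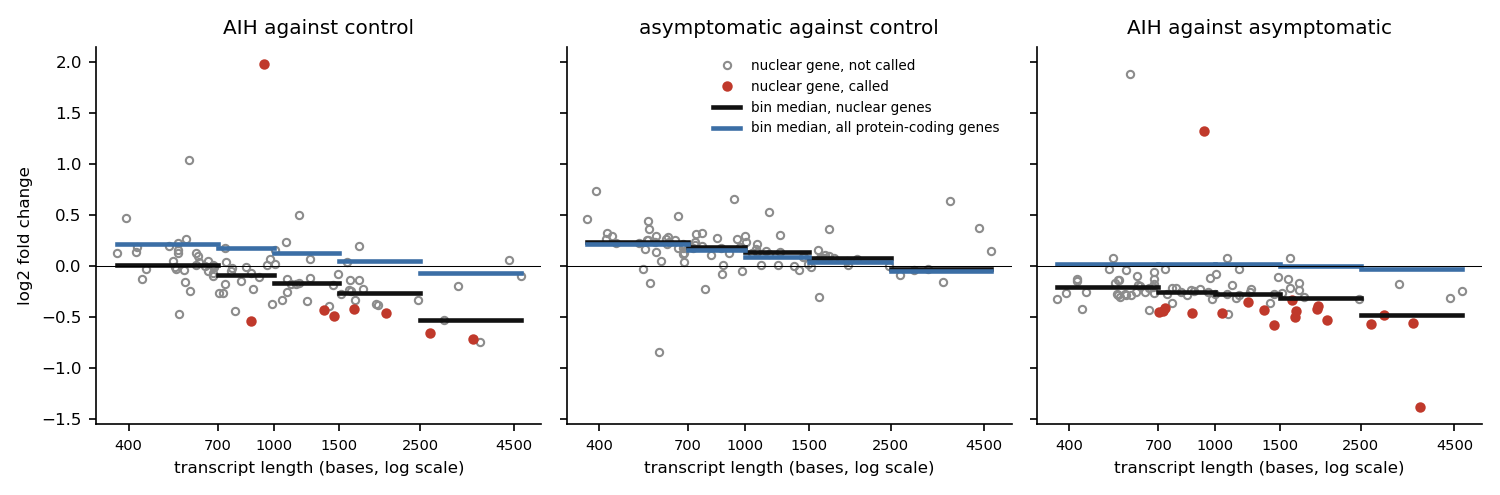
Log2 fold change of the 88 nuclear genes against principal transcript length (log scale) in each comparison, filled where called, with medians in 5 length classes for these genes (black) and for all 12913 protein-coding genes (blue). Black and blue medians run close together in asymptomatic against control, and black lies below blue in both comparisons with AIH.

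The 13 mitochondrially encoded genes split into 7 with over 1000 counts in every library and 6 with far fewer. The 6 are mt-Co2, mt-Co3, mt-Atp6, mt-Atp8, mt-Nd3 and mt-Nd4l, with 8 to 39 counts for mt-Nd4l and 247 to 400 for mt-Co3, against 112782 to 235758 for mt-Co1. Of these 6, 5 share 98.0% or more of their 50-base words with annotated nuclear pseudogenes, and mt-Co1 and mt-Nd4 share 51.1% and 62.2%. mt-Cytb, mt-Nd1 and mt-Nd6 share none. The 7 copies with the most shared words for these 7 genes lie next to each other on chromosome 1, from 24611535 to 24616197 (GRCm38), and those of the 5 genes hold more counts than the genes they match. Gm28437, the copy of mt-Co3, had 8573 to 14609 counts, and Gm10925, the copy of mt-Atp6, had 7576 to 13757. mt-Atp8 shares no word with an annotated copy. It lies after mt-Co2, at 7766 to 7969 of the mitochondrial genome, and its end overlaps the start of mt-Atp6 (7927 to 8607). Gm28661 and Gm10925, the copies of mt-Co2 and mt-Atp6, leave a gap of 233 bases between them. The 6 counts are therefore uncertain as measures of the mitochondrial transcripts.

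The end of mt-Nd3 and a stretch inside mt-Nd4 show the sharing, read from GENCODE M21 transcripts (GRCm38, plus strand of the mitochondrial genome). The mt-Nd3 stretch is chrM:9627-9806 and the mt-Nd4 stretch is chrM:10953-11132. Capitals mark bases covered by a 50-base word that is also found in a nuclear pseudogene, Gm28438 for mt-Nd3 and Gm28439 for mt-Nd4.
mt-Nd3: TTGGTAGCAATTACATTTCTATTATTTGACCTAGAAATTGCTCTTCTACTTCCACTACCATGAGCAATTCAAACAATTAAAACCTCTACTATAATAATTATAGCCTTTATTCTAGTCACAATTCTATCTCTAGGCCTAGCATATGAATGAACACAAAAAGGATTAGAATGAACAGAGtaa
mt-Nd4: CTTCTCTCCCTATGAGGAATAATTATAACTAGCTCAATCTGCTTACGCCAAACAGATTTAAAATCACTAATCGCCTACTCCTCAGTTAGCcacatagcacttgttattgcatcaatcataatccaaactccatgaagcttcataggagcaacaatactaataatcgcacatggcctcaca
In mt-Nd3 all but the last 3 bases of the stretch are shared. In mt-Nd4 the shared run covers bases 1 to 876 of the transcript and ends inside the stretch, and Gm28439 spans 24611535 to 24612410 on chromosome 1.

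**Figure D5:**
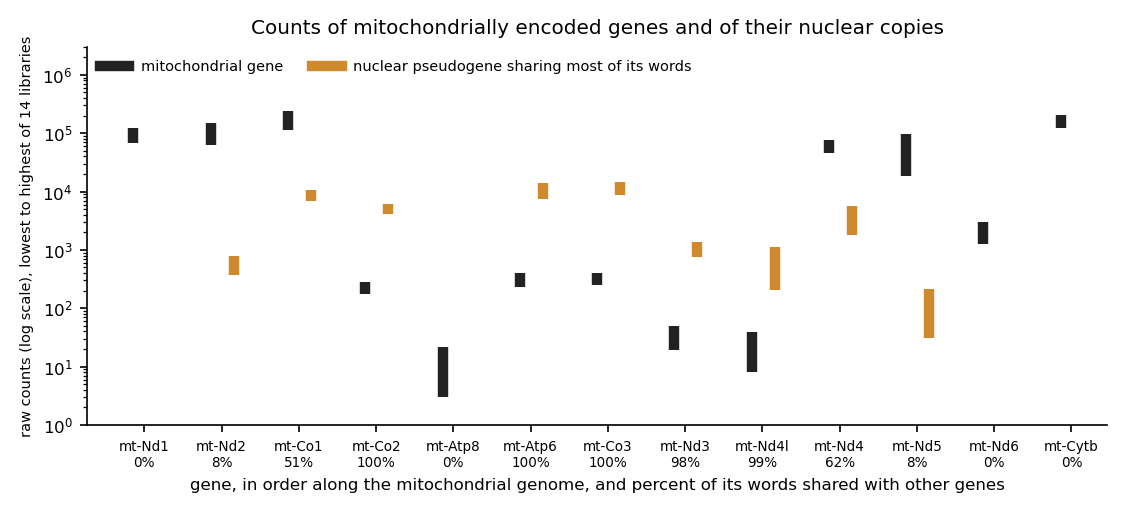
Raw counts (log scale) of the 13 mitochondrial genes in genome order, each bar from the lowest to the highest of 14 libraries, beside the nuclear pseudogene that shares most of their 50-base words. The 5 genes with 98% or more of their words shared have fewer counts than their copies, and the genes with none shared other than mt-Atp8 have over 1000.

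Of the 7 well-counted mitochondrial genes, all had estimates below 0 in AIH against control, with log2 fold changes from -0.71 to -0.19, and 1 fell. mt-Nd2, a core membrane subunit of complex I, had 4021, 3076, 3981, 5902 and 3605 CPM in AIH livers, against 5693, 6812, 4592, 6021 and 5855 CPM in asymptomatic livers and 6664, 6581, 4485 and 8247 CPM in control livers. The AIH livers other than the male AIH liver 4 were below all other livers, and control liver 3 was the lowest control. Its log2 fold change was -0.66 ± 0.22 (SE) against control (adjusted p = 0.0414), a call lost without any 1 of AIH livers 1, 2, 3 and 5 and control livers 1, 2 and 4 (adjusted p between 0.0656 and 0.1097), and -0.49 ± 0.20 (SE) against asymptomatic (adjusted p = 0.0827). mt-Nd5, the proton-pumping subunit at the far end of the membrane arm, had 3413, 886, 2578, 3804 and 3337 CPM in AIH livers, against 3113, 5048, 3294, 2901 and 3345 CPM in asymptomatic livers and 5184, 4547, 3176 and 5481 CPM in control livers. AIH liver 2 was far below every other liver, and the log2 fold change of -0.71 ± 0.33 (SE) against control was not called (adjusted p = 0.142).

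mt-Co1, the catalytic subunit of complex IV, had 8110.5 ± 2043 CPM in AIH livers (SD, n = 5), 10020.0 ± 685 CPM in asymptomatic livers (SD, n = 5) and 10974 ± 1888 CPM in control livers (SD, n = 4). Its log2 fold change of -0.44 ± 0.19 (SE) against control was not called (adjusted p = 0.125). mt-Cytb, the cytochrome b of complex III, had 8369 ± 1337 CPM in AIH livers (SD, n = 5), 9914 ± 1194 CPM in asymptomatic livers (SD, n = 5) and 9555 ± 1708 CPM in control livers (SD, n = 4). It was not called either (log2 fold change -0.19 ± 0.18 (SE) against control, adjusted p = 0.484). mt-Nd1, mt-Nd4 and mt-Nd6 had log2 fold changes of -0.38, -0.38 and -0.29 against control, not called. With the 6 genes that share 50% or more of their words with 1 copy (mt-Atp6, mt-Co2, mt-Co3, mt-Nd3, mt-Nd4 and mt-Nd4l) joined to that copy, mt-Nd4 had a log2 fold change of -0.39 against control, mt-Co3 had 0.03 against control, mt-Atp6 -0.21 and mt-Co2 -0.09, and the call of mt-Nd2 was the only one, as before. Joining was chosen after seeing the data.

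The mitochondrial estimates moved with sex as a term, with scaling and with single libraries. In AIH against asymptomatic, all 13 estimates were below 0 with a median of -0.24. Without AIH liver 2 the median was -0.10 and 10 of 13 were below 0, and by library totals alone it was -0.04 and 8 of 13 were. With sex as a term 4 of 13 were below 0 and the median was 0.05. In that comparison AIH liver 4 is the only AIH male and no asymptomatic liver is female, so sex cannot be told apart from outcome. In AIH against control the median was -0.31, and -0.19 with sex as a term, -0.29 within females (4 against 2) and -0.11 within males (1 against 2). In asymptomatic against control it was -0.01, and -0.20 with sex as a term. These medians mix the 7 well-counted genes with the 6 uncertain ones. The 7 had medians of -0.38 in AIH against control, -0.16 in asymptomatic against control and -0.31 in AIH against asymptomatic. The 6 had -0.16, 0.06 and -0.10. Whether the AIH effect differs between females and males could hardly be tested, with 1 AIH male. An interaction fit (edgeR) called 0 of 101 members and 0 of all 14638 genes at an adjusted p of 0.05, with 0 members and 404 genes at an unadjusted p under 0.05, which does not show that the sexes respond alike.

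In asymptomatic against control the nuclear genes leaned the other way without a call. Of 88 estimates 74 were above 0, with a median of 0.16, and 0.16 above the median of all genes. Without asymptomatic liver 3, which had the highest nuclear sum of all 14 livers, the median was 0.04, 0.05 above that of all genes, and 59 of 88 estimates were above 0. Within males (5 against 2) the median was 0.12, and scaled by library totals alone it was 0.11. The smallest p-values belonged to Cox7a2, a subunit of complex IV, Atp5l, the g subunit of complex V, Ndufaf4, and Ndufb3, an accessory subunit of complex I. Cox7a2 had 106, 136, 100.4, 118 and 85.1 CPM in AIH livers, against 146, 116, 192, 157 and 129 CPM in asymptomatic livers and 124, 96.2, 108 and 94.7 CPM in control livers. Its log2 fold change was 0.49 ± 0.18 (SE) in asymptomatic against control (adjusted p = 0.423), with asymptomatic liver 3 highest. Atp5l averaged 16.4 ± 2.89 CPM in AIH livers (SD, n = 5), 20.0 ± 4.26 CPM in asymptomatic livers (SD, n = 5) and 14.7 ± 0.912 CPM in control livers (SD, n = 4). Its asymptomatic livers lay above all controls, yet the log2 fold change of 0.44 ± 0.17 (SE) was not called (adjusted p = 0.430), and 84.8% of its words are shared with pseudogenes. Ndufb3 had a log2 fold change of 0.32 ± 0.15 (SE) (adjusted p = 0.459). limma-voom with quality weights called Cox7a2 and Ndufaf4 higher.

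Nuclear respiratory factor 1 (NRF1) is a transcription factor known for its sites in promoters of respiratory chain genes, and its palindrome, GCGCA followed by its reverse complement TGCGC, which reads the same on both strands, was searched in RefSeq promoters (GRCm38.p6; 250 bases before to 50 after the start). Promoters were found for 74 member genes in 79 entries. The palindrome was in 7 of these entries (8.86%), against 319 of all 32851 promoters (0.971%). The 7 stretches are given with the palindrome in capitals and its flanks in lower case, each on the strand of its gene.
Ndufaf4: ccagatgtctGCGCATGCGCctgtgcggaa
Uqcrc1: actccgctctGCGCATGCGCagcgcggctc
Ndufaf5: agtcccgttgGCGCATGCGCctaatagaaa
Ndufa11: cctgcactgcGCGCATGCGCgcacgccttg
Cox6a1: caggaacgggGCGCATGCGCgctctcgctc
Atp5k: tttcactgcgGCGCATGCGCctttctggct
Atp5g2: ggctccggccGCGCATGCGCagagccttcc
They lie at chr4:24897960-24897989 (Ndufaf4), chr9:108936668-108936697 (Uqcrc1), chr2:140170652-140170681 (Ndufaf5), chr17:56717692-56717721 (Ndufa11), chr5:115349101-115349130 (Cox6a1), chr5:108434430-108434459 (Atp5k) and chr15:102671070-102671099 (Atp5g2). In AIH against asymptomatic Ndufaf4 and Uqcrc1 fell, and the other 5 had log2 fold changes from -0.33 to -0.03, not called. Among all 88 nuclear genes tested 18 fell (20.5%), and a link between the palindrome and the falls was not tested. A match is a string of letters and not a measured site, and genes without it may hold other forms.

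Genes around the complexes that the symbol patterns leave out were counted in 7 lists, where 6.08% of all genes fell in AIH against control and 10.7% in AIH against asymptomatic. These counts also depended on scaling and sex: by library totals alone 2 citric acid cycle, 5 genome expression, 3 assembly and 3 ribosomal genes fell against asymptomatic, and with sex as a term 0, 3, 3 and 1 did. Calls over all genes were fewer in these fits too, with 3.02% lower by library totals alone and 1.02% with sex as a term. Of the citric acid cycle and pyruvate dehydrogenase genes, which supply the chain with electrons, 10 of 18 fell in AIH against control (median -0.49) and 11 in AIH against asymptomatic (median -0.48), and Idh2, an isocitrate dehydrogenase, rose against asymptomatic (0.58 ± 0.20 SE, adjusted p = 0.0397). The smallest p-values against control were those of Dlst (-0.75 ± 0.15 SE, adjusted p = 0.00281) and Suclg1 (-0.66 ± 0.14 SE, adjusted p = 0.00377), subunits of oxoglutarate dehydrogenase and succinyl-CoA ligase. Against asymptomatic they were those of Pdhx (-0.76 ± 0.15 SE, adjusted p = 0.00149) and Dld (-0.49 ± 0.11 SE, adjusted p = 0.00370), both parts of pyruvate dehydrogenase. Of the factors that replicate and express the mitochondrial genome, 8 of 21 fell in AIH against control (median -0.38) and 11 in AIH against asymptomatic (median -0.45). They include Tfb2m (-0.86 ± 0.18 SE, adjusted p = 0.00322), a transcription initiation factor, and Polg (-0.64 ± 0.15 SE, adjusted p = 0.00859), the DNA polymerase, against control, and Supv3l1 (-0.88 ± 0.16 SE, adjusted p = 0.000829), an RNA helicase, and Lrpprc (-0.84 ± 0.16 SE, adjusted p = 0.00168), which stabilizes mitochondrial mRNA, against asymptomatic.

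Of assembly factors outside the patterns, 9 of 39 fell in AIH against control (median -0.35) and 14 in AIH against asymptomatic (median -0.37). Taco1 (-0.98 ± 0.21 SE, adjusted p = 0.00441), an activator of mt-Co1 translation, and Uqcc1 (-0.62 ± 0.14 SE, adjusted p = 0.00683), an assembly factor of complex III, led against control. Tmem186 (-0.93 ± 0.18 SE, adjusted p = 0.00141), of complex I assembly, and Uqcc1 (-0.72 ± 0.14 SE, adjusted p = 0.00145) led against asymptomatic. Of the mitochondrial ribosomal proteins, 4 of 77 fell in AIH against control (median -0.15) and 20 in AIH against asymptomatic (median -0.28). Mrps5 (-0.69 ± 0.14 SE, adjusted p = 0.00292) and Mrps35 (-0.55 ± 0.14 SE, adjusted p = 0.0107) led against control, and Mrps7 (-0.63 ± 0.13 SE, adjusted p = 0.00265) and Mrpl19 (-0.76 ± 0.17 SE, adjusted p = 0.00488) against asymptomatic. Of the electron carriers and coenzyme Q genes, 5 of 21 fell in AIH against control (median -0.22) and 4 in AIH against asymptomatic (median -0.32). Coq9 (-0.63 ± 0.17 SE, adjusted p = 0.0170), of coenzyme Q synthesis, and Etfdh (-1.25 ± 0.37 SE, adjusted p = 0.0241), which feeds electrons from fatty acid oxidation, led against control. Cyc1 (-0.52 ± 0.13 SE, adjusted p = 0.00749), the cytochrome c1 of complex III that its symbol kept out of the members, and Coq5 (-0.60 ± 0.16 SE, adjusted p = 0.0117) led against asymptomatic.

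Of the regulators of mitochondrial biogenesis, 3 of 14 fell in AIH against control (median -0.17) and 2 in AIH against asymptomatic (median -0.26), and Sirt1 rose against asymptomatic (0.37 ± 0.13 SE, adjusted p = 0.0433). Ppara, a receptor that drives fatty acid oxidation genes in liver, fell against control (-1.51 ± 0.33 SE, adjusted p = 0.00501) and against asymptomatic (-1.09 ± 0.32 SE, adjusted p = 0.0179), and Gabpa (-0.55 ± 0.16 SE, adjusted p = 0.0260), also known as NRF2 alpha, fell against control. Of 9 ATP and phosphate carriers and uncoupling proteins tested, none fell, 2 rose in AIH against control (22.2%, where 15.6% of all genes rose) and 3 in AIH against asymptomatic (33.3%, where 19.1% rose), and 4 of 9 estimates were below 0 in each, with medians of 0.03 and 0.01. Slc25a4, the ADP/ATP carrier typical of heart and muscle, had 30.3, 32.0, 32.5, 20.1 and 15.6 CPM in AIH livers, against 4.68, 7.06, 7.03, 4.91 and 5.52 CPM in asymptomatic livers and 6.66, 7.69, 7.57 and 6.26 CPM in control livers. Every AIH liver was above all others, with log2 fold changes of 1.89 ± 0.23 (SE) and 2.16 ± 0.22 (SE) (adjusted p = 7.22e-05 and 1.04e-05). Slc25a5, the more abundant carrier of liver, had 200.1 ± 18.5 CPM in AIH livers (SD, n = 5), 225 ± 13.2 CPM in asymptomatic livers (SD, n = 5) and 226 ± 21.3 CPM in control livers (SD, n = 4), and was not called. Ucp2, which is abundant in leukocytes, rose with log2 fold changes of 1.93 ± 0.29 (SE) and 2.41 ± 0.28 (SE) (adjusted p = 0.000387 and 2.61e-05). All 5 pan-leukocyte markers given above rose as well, and the part of leukocytes in the rise of Ucp2 was not tested. Atpif1, the inhibitor of ATP synthase reversal, rose against asymptomatic (1.33 ± 0.39 SE, adjusted p = 0.0200), with AIH liver 2 highest. No gene of the 7 lists was called in asymptomatic against control.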

How the data were processed

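The deposited files hold raw read counts per Ensembl gene, made by the authors with 1 file per library. The submitters' processing notes list, with no role or order, the aligner HISAT2 (2.1.0), the counter HTSeq (0.9.0), the trimmer cutadapt (1.12), FastQC (0.11.5) and edgeR under R 4.0, and the builds GRCh38 and GRCm38, and the strand setting is not given in the sources used here, so overlapping genes on opposite strands may share reads. Each file has 51912 gene rows, of which 193 had no annotation, and 5 summary rows that were left out: 28.8% to 37.0% of all counts in a file were not uniquely aligned, 3.23% to 9.27% did not align, 2.29% to 3.29% met no gene and 1.38% to 3.05% met several. Names, gene types and coordinates came from GENCODE M21 (GRCm38).

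Genes were filtered with filterByExpr, scaled by TMM and tested with edgeR 4.0.16 (R 4.3.3; quasi-likelihood, all 3 groups in 1 fit, two-sided), after the fit was tested on simulated data. Alternatives used DESeq2 1.42.0, limma 3.58.1, other scalings and filters, sex or the share not aligned as a term, subsets and each library left out. Joining mitochondrial genes with their copies, and reading the overlap of groups by library totals, were added after seeing the data. Levels per kb use the principal transcript. Named genes were the 10 called members with the smallest p per direction and comparison (4 where none was called), the mitochondrial genes, the highest per complex and isoform pairs, plus 2 called genes per list, and further members were named to account for the rest, except for 1 that is not reported here. The members and lists were chosen with earlier results of these data known. All libraries come from separate animals as labelled, and no pair within a group was alike within sampling noise. Pairs across groups were not compared.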

Additional observations from a re-analysis of the deposited data

Results flagged for a closer look

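Of 123 groups of 4 or 5 livers examined (each gene or sum in each group), 14 had a liver whose gap to the nearest other liver was large for the range of its group by Dixon's criterion. Chance flags about 1 in 20 groups.

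Asymptomatic liver 3 stood above its group for nuclear genes of complexes III and IV. It had 345 CPM of Ndufa4, 476 CPM of Cox4i1, 209 CPM of Uqcrh and 241 CPM of Uqcrfs1, against 239, 349, 138 and 214 CPM in the nearest asymptomatic liver. Its summed nuclear level was 13882 CPM, and the nearest asymptomatic liver had 11266 CPM. The same liver had 25.1 CPM of mt-Co3, the highest of its group, and 0.878 CPM of mt-Nd4l, the lowest. Asymptomatic liver 2 stood high in mitochondrial genes, with 11969.5 CPM of mt-Cytb, 5048 CPM of mt-Nd5 and a summed level of 44642 CPM, and low in mt-Co2 with 11.8 CPM.

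AIH liver 3 had 7.40 CPM of Ndufa4l2, and the nearest AIH liver had 2.53 CPM. AIH liver 4, the male of the group, had 3892 CPM of mt-Nd4, against 2863 CPM in the nearest AIH liver. Control liver 1, a male, had 13781 CPM of mt-Co1, against 10357 CPM in the nearest control. What these livers share beyond the values given was not tested.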

How the results depend on the processing

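No paired analysis was possible because the labels give no replicate numbers that tie livers of different groups together. In AIH against control, 8 nuclear genes were called, and 2 with library totals alone, 19 with DESeq2, 15 with limma-voom, 5 with sex as a term, 1 within females, 0 within males and 4 to 10 without 1 library (4 without control liver 1). The mitochondrial call, 1 gene, became 2 with DESeq2 and with limma-voom, 0 to 3 without 1 library (3 without AIH liver 4), and 0 with library totals alone, no count filter, the 2 groups alone, sex or the share not aligned as a term, females or males. In AIH against asymptomatic, 19 nuclear genes were called, and 3 with library totals alone, 12 with the 2 groups alone, 1 with sex as a term, 0 within males, 0 with the share not aligned as a term and 11 to 20 without 1 library (11 without AIH liver 1, 3 or 5 or asymptomatic liver 5). The mitochondrial count there was 0, and 2 with DESeq2, with limma-voom or without AIH liver 4. In asymptomatic against control the nuclear count was 0, and 2 with limma-voom, and the mitochondrial count was 0 in every fit run. By library totals alone, an alternative added after seeing the data, AIH livers lay below all controls for 1 nuclear gene, against 13 with TMM, and below all asymptomatic livers for 2, against 12. Calls over all genes in AIH against control were 21.7% with edgeR and TMM and 20.4% by library totals alone. They were 25.9% with DESeq2, 25.1% with limma-voom and 17% with sex as a term. The cause of these shifts was not tested. Of 1520 refits of single members 1243 kept direction and side of the threshold, 211 lost the call, 13 gained it, 53 moved by more than the standard error and 0 turned a called direction. Many of these refits are of members that were not called and so could not lose a call. The 211 are thus not a share of all 1520. Of 455 refits of list counts, 364 stayed within 1.5 times.

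Depth limits the rare members. Ndufa4l2 and Cox4i2 rest on at most 127 and 12 counts per library, and 6 of 13 mitochondrial genes on counts that nuclear copies may share.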
